A study of Mus musculus with 15 samples.

Results

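The genes described here are 10 that mark monocytes and macrophages entering injured tissue from the blood: Ccr2, Ly6c2, Chil3, Plac8, Lyz2, Fn1, Ms4a4c, Arg1, Thbs1 and S100a4. They were given as a list of symbols and matched to mouse Ensembl genes, and all 10 were among the 33223 genes counted. Bulk RNA sequencing was done on mouse cortex 1 day after a moderate controlled cortical impact, in which a piston strikes the exposed cortex to model head trauma. The injured-side cortex was dissociated and passed over microbeads against CD45, the surface protein common to leukocytes and microglia, and against CD31, an endothelial protein. The comparison groups were the CD45 fraction from wild type mice (WT, 3 libraries) and from knockout mice (KO, 4 libraries), and the flow-through, the cells that the beads did not hold, from WT (4 libraries) and KO (3 libraries). WT mice were EphA4f/f-WT, with the receptor tyrosine kinase gene EphA4 floxed, and KO mice were EphA4f/f-VeCadCreERT2, with a tamoxifen-dependent Cre under the VE-cadherin promoter, which acts in endothelial cells. All mice, WT included, were injured and sampled at the same time, so neither fraction has an uninjured control here. The deletion is directed at endothelium, and the CD45 cells themselves are not its target. Ages were not given in the sources used here, and the labels do not name animals.

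Circulating classical monocytes carry high surface Ly6C and the chemokine receptor CCR2, and leave the blood along gradients of the CCR2 ligands CCL2 and CCL7. In injured brain they turn into macrophages within hours to days and lose part of the monocyte program as they gain genes of phagocytosis, arginine metabolism and matrix handling. Ccr2, Ly6c2, Chil3, Plac8 and Ms4a4c belong mainly to the monocyte end of this course, while Arg1, Fn1 and Thbs1 are high in macrophages at wound sites. Lyz2 is shared by monocytes, macrophages and neutrophils, and S100a4 by many motile cells. Microglia, the resident macrophages of the brain, are held by CD45 beads too.

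Some members have a near-identical neighbour gene, so the sequences come before the values. Ly6c2 (chr15:75108158-75111970, minus strand, GRCm38) and its neighbour Ly6c1, which is also expressed by endothelial cells, have coding sequences of 393 bases that differ at 9 positions, an identity of 97.7%. Lyz2, the macrophage lysozyme (chr10:117277331-117282321, minus strand), and Lyz1, the Paneth cell lysozyme, have 444 coding bases with 22 differences, an identity of 95.05%. A stretch of 90 coding bases of each is shown because it holds many of the differences by which a read can be assigned to 1 member of a pair: 6 for Ly6c2 and Ly6c1 and 13 for Lyz2 and Lyz1, in capitals. The Ly6c stretch covers coding bases 1 to 90 and the lysozyme stretch coding bases 43 to 132, all from GENCODE M21 transcripts.
Ly6c2: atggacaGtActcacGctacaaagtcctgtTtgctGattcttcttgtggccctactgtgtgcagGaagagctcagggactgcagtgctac
Ly6c1: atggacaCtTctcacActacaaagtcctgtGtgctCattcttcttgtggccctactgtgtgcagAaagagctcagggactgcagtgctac
Lyz2: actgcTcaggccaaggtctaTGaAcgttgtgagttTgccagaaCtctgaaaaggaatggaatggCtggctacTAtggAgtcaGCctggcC
Lyz1: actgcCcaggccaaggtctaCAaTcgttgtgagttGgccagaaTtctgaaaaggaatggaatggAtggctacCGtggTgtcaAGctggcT
Along the whole coding sequence the longest run without a difference was 188 bases for the Ly6c pair and 118 for the lysozyme pair.

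Of all 50-base words in the exons of Ly6c2, 14.5% also occurred in transcripts of another gene, chiefly Ly6c1, and of its 100-base words 5.81%. For Lyz2 the shares were 15.4% and 1.97%, with Lyz1 as the partner. Chil3, the chitinase-like protein Ym1, shared 26.9% of its 50-base words and 4.93% of its 100-base words, chiefly with Chil4, which was not analysed here. Ms4a4c, a tetraspan membrane protein, shared 8.19% and 1.66%, chiefly with Ms4a4b. S100a4, a calcium-binding protein, stood apart from the other members, with 47.4% and 41.9% shared with Gm42674, a gene model on the same strand that covers 51.7% of its exon bases. Plac8 and Arg1 shared no such word, and for Ccr2, Fn1 and Thbs1 the 50-base shares were between 1.89% and 2.51%. The sources used here name no read length, counting tool or strand setting. Values of S100a4, Chil3, Ly6c2, Lyz2 and Ms4a4c are therefore uncertain to the extent that reads were split between copies or dropped. Fn1, Ms4a4c and Thbs1 have 2.5%, 1.6% and 3.4% of their exon bases under a gene on the opposite strand.

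The other positions on GRCm38 are as follows. Ccr2 lies at chr9:124101950-124113557 on the plus strand, Thbs1 at chr2:118111876-118127133 on the plus strand and Ms4a4c at chr19:11404770-11427246 on the plus strand. S100a4 lies at chr3:90603771-90606045 on the plus strand. Chil3 lies at chr3:106147554-106167564, Plac8 at chr5:100553725-100572245, Fn1 at chr1:71585520-71653200 and Arg1 at chr10:24915221-24927484, all on the minus strand.

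The CD45 libraries carried 11574414 to 31337948 counts and the flow-through libraries 19204814 to 27270907. Ptprc, which encodes CD45, stood at 908 ± 94.1 CPM (SD, n = 7) in the CD45 libraries and 0.957 ± 0.192 in the flow-through. CPM is the count of a gene relative to the total of its library, here scaled within a fraction by TMM factors, which adjust for differences in library composition. Epha4 stood at 2.83 ± 0.133 CPM in CD45 WT (SD, n = 3) and 2.52 ± 0.949 in CD45 KO (n = 4), and at 41.2 ± 2.89 (n = 4) and 39.3 ± 2.75 (n = 3) in the flow-through. Neither difference passed the test (edgeR quasi-likelihood, adjusted p = 0.989 and 0.849). Summed markers of endothelial cells (10 genes), in which the Cre acts, ran from 323 to 559 CPM in the CD45 fraction. In the flow-through, from which the CD31 beads had also taken cells, they ran from 54.1 to 79.2 CPM. No library here holds the cells bound by the CD31 beads, so the Epha4 values do not check the labels. Pecam1 was the most abundant of these markers in CD45, at 151 ± 12.7 CPM (SD, n = 7). Which cells gave these transcripts was not tested. Flow-through WT replicate 5, as labelled, is found in the table of CD45 libraries; since label and table disagree, that library entered no result. On the first principal component of the CD45 libraries, which took 33.3% of the variance, WT replicate 3 (30.8) and KO replicate 4 (24.3) stood apart from the other 5 (-18.1 to -4.18).

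Levels between genes were compared per kilobase of exon (RPKM, CPM divided by exon length) in the 7 CD45 libraries. Lyz2 was the most abundant member at 3291 ± 936 RPKM (SD, n = 7), rank 3 of 15649 genes. Thbs1, a secreted matricellular glycoprotein, followed at 1273 ± 90.8 (rank 18), Arg1, which splits arginine into ornithine and urea, at 1176 ± 227 (rank 21), and Fn1, the matrix protein fibronectin, at 562 ± 39.6 (rank 49). These 4 genes, high in macrophages at wound sites or shared by most phagocytes, were thus among the most abundant transcripts of the fraction. The chitinase-like Chil3 stood at 205 ± 46.5 RPKM, Ccr2 at 65.3 ± 20.9 and Plac8, a small cysteine-rich protein of myeloid cells, at 48.3 ± 13.2. Ms4a4c at 18.0 ± 7.63, S100a4 at 14.3 ± 6.27 and Ly6c2 at 10.5 ± 2.73 closed the order, with Ly6c2 at rank 4301. Neighbours in this order whose ranges overlapped were Thbs1 with Arg1, Ccr2 with Plac8, Ms4a4c with S100a4, and S100a4 with Ly6c2. The other neighbours kept their order in all 7 libraries. With the length of the longest transcript in place of all exons, Arg1 stood at 1774 RPKM and Thbs1 at 1322, which swaps the pair.

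Together the 10 members took 2.21% of the counts of the CD45 libraries, of which Fn1 and Thbs1 made up 64.1%. In the flow-through they took 0.0149% of counts, and Fn1 alone was 77.8% of that.

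Ccr2, the chemokine receptor, stood at 508, 555 and 208 CPM in WT replicates 1 to 3 and at 553, 450, 536 and 279 CPM in KO replicates 1 to 4. WT replicate 3 and KO replicate 4 were low, and the genotypes overlapped. In the flow-through Ccr2 had 0 to 7 counts a library, 24 over all 7 libraries. For Lyz2, the lysozyme of phagocytes, WT libraries were at 5361, 5141 and 2283 CPM and KO libraries at 5359, 4923, 4254 and 2993 CPM. The same pair of libraries was lowest. In the flow-through Lyz2 stood between 1.19 and 3.03 CPM.

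Chil3 stood at 299, 302 and 226 CPM in WT and at 391, 398, 439 and 287 CPM in KO. Of the 4 KO libraries 3 were above every WT library, and KO replicate 4 lay among the WT values. Plac8 was measured at 80.5, 81.8 and 57.3 CPM in WT and at 89.0, 70.1, 111 and 47.9 CPM in KO. Its KO values ran from below to above the WT range. Ly6c2 gave 26.1, 29.3 and 22.5 CPM in WT and 23.8, 30.1, 44.5 and 24.9 CPM in KO, with KO replicate 3 above the rest. Ms4a4c gave 9.29, 41.5 and 20.004 CPM in WT and 48.1, 34.3, 38.7 and 28.2 CPM in KO. WT replicate 1 was lowest and WT replicate 2 lay within the KO range, so the WT values spread over a wide range.

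Fn1, Thbs1 and Arg1, the genes of wound macrophages, had the lowest relative spread of the members. Fn1 stood at 6469, 7159 and 6216 CPM in WT and at 5790, 6574, 6774 and 6957 CPM in KO. Thbs1 gave 8011, 6981 and 7351 CPM in WT and 7281, 8182, 8524 and 7791 CPM in KO. Their coefficients of variation over the 7 libraries were 7.05% and 7.13%, with 19.3% for Arg1 and 31.996% for Ccr2. Arg1 gave 2533, 2608 and 1840 CPM in WT and 2327, 2930, 2628 and 3474 CPM in KO, with WT replicate 3 lowest and KO replicate 4 highest. S100a4 gave 10.9, 8.30 and 1.98 CPM in WT and 4.66, 10.4, 11.5 and 10.8 CPM in KO.

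**Figure D1:**
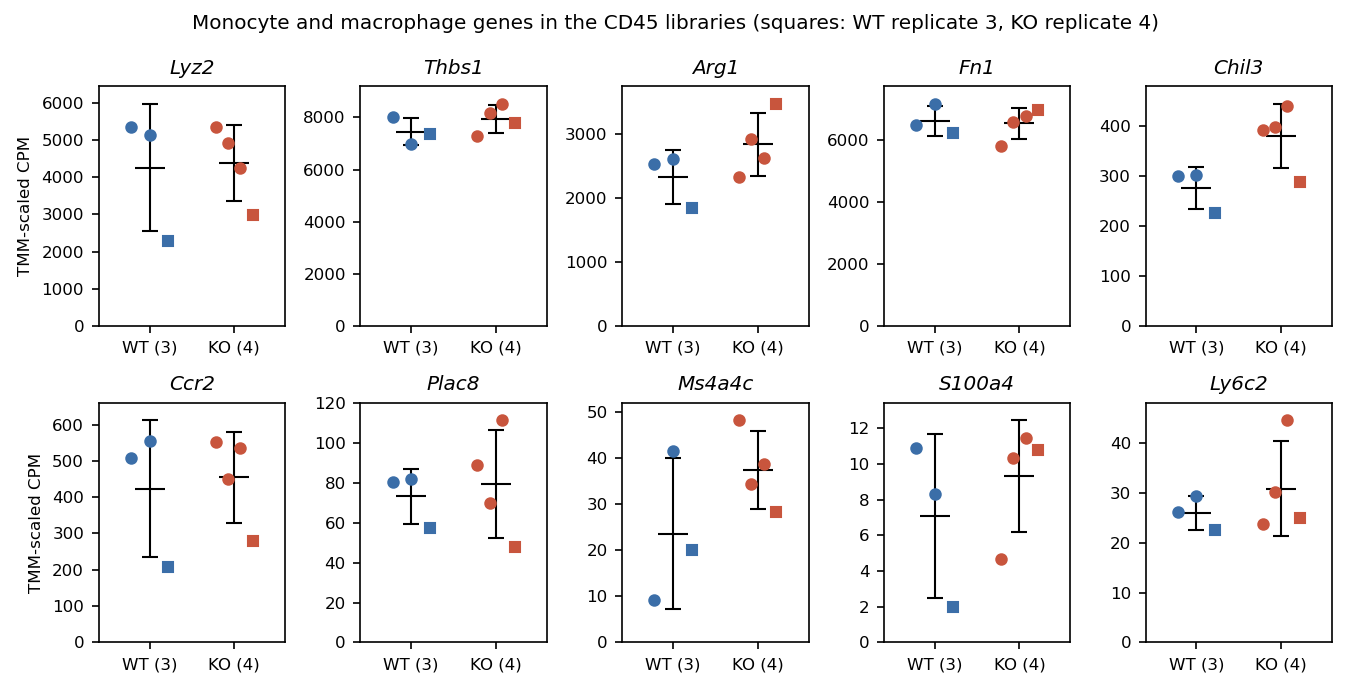
TMM-scaled CPM of the 10 members in each CD45 library, WT in blue (3 libraries) and KO in red (4 libraries), with the group mean and SD as bars and axes from 0. Squares mark WT replicate 3 and KO replicate 4. These are the lowest 2 libraries for Ccr2, Lyz2, Chil3 and Plac8, but for no other member.

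The first question the design asks is whether deleting EphA4 in endothelium changed these genes in the CD45 cells. No member differed between KO and WT at an adjusted p under 0.05 (0 of 10), and neither did any of the 15660 genes tested (edgeR quasi-likelihood test with Benjamini-Hochberg adjustment, 0% called). At an unadjusted p under 0.05 the counts were 1 of 10 members and 693 of all genes, which is 4.43%, and DESeq2 called 5 genes, none of them a member. For all 10 members the genotypes overlapped, while they did not overlap for 5.34% of all genes. P-values measure the spread between these libraries, which may be partly technical.

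Chil3 was the member past that unadjusted threshold. Its log2 fold change (KO minus WT) was 0.46 (SE 0.16, 95% interval 0.11 to 0.81) at an adjusted p of 0.974, and it ranked 171 of 15660 genes by p. Chil3 is secreted by monocytes and alternatively activated macrophages. Ms4a4c had the largest estimate, 0.66 (SE 0.47, interval -0.45 to 1.77), and S100a4 was at 0.39 (SE 0.54, interval -0.86 to 1.63). These are the 2 members whose intervals reach a 2-fold difference. For the other 8 members the interval lay within 2-fold in either direction.

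Of those, the monocyte genes Ccr2 at 0.10 (SE 0.36), Ly6c2 at 0.24 (SE 0.21) and Plac8 at 0.12 (SE 0.27) and the phagocyte gene Lyz2 at 0.04 (SE 0.31) had the wider intervals. Fn1 at -0.02 (interval -0.30 to 0.26) and Thbs1 at 0.09 (interval -0.19 to 0.37) were the most narrowly bounded. Arg1 was at 0.29 (interval -0.10 to 0.67). Adjusted p-values of all 10 ran from 0.974 to 0.993. The estimate was above 0 for 9 of 10 members, with a median of 0.18, against 54.5% of all genes and a median of 0.02. The tally moved with single libraries in both directions. Without WT replicate 3 the estimate was above 0 for 5 of 10 members with a median of 0.02, and without KO replicate 3 for 8 of 10 with a median of 0.06. Without WT replicate 2 it was above 0 for 10 of 10 with a median of 0.34, and without KO replicate 4 for 9 of 10 with a median of 0.29. Without both WT replicate 3 and KO replicate 4 it was above 0 for 6 of 10 with a median of 0.06. In bulk samples, fewer cells of a type and less RNA per cell cannot be told apart.

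**Figure D2:**
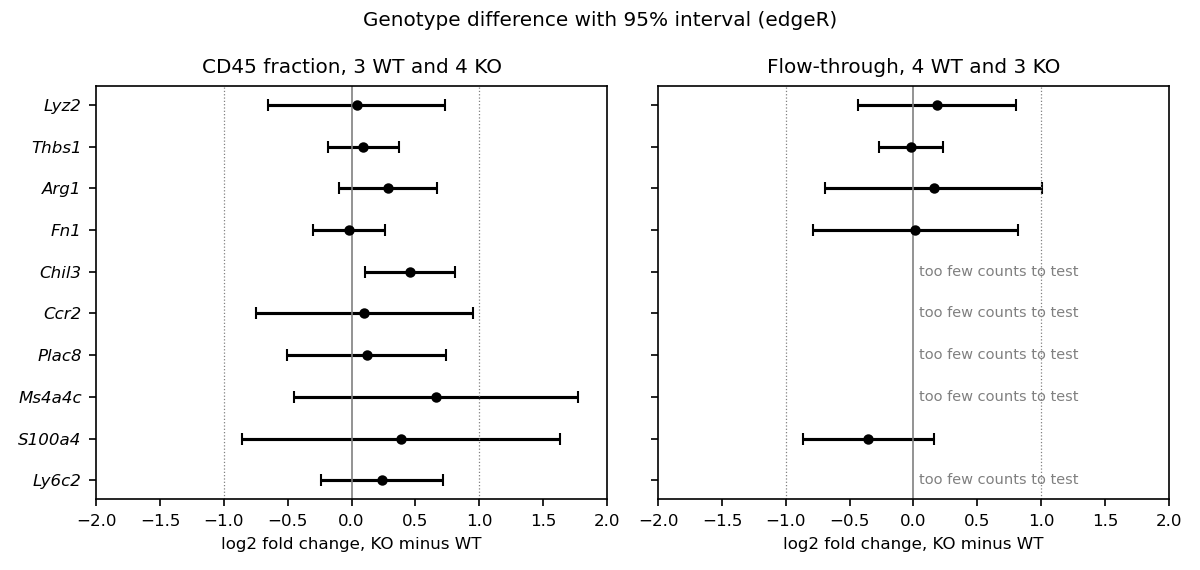
log2 fold change, KO minus WT, of each member with its 95% interval from edgeR, in the CD45 fraction (left) and in the flow-through (right), with dotted lines at a 2-fold difference. In the CD45 fraction the interval of Chil3 (0.11 to 0.81) is the only one that excludes 0, at an adjusted p of 0.974, and 5 members had too few counts in the flow-through to be tested.

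WT replicate 3 and KO replicate 4 were both below the other 5 CD45 libraries in 4 of 10 members, Ccr2, Lyz2, Chil3 and Plac8. The share of all genes tested with this order was 13.3%. The mean of the pair was 0.468 times the mean of the other 5 for Ccr2, 0.527 times for Lyz2, 0.607 times for Plac8 and 0.702 times for Chil3. For Ly6c2, Ms4a4c and S100a4 the ratio was 0.770, 0.702 and 0.697, although the pair did not lie below all of the other 5. For Fn1, Arg1 and Thbs1 the same ratio was 1.01, 1.02 and 0.971. The pair thus had less of the receptor, lysozyme and chitinase-like transcripts, while Fn1 and Thbs1 lay within the range of the rest and Arg1 was lowest in 1 library of the pair and highest in the other. The pair is made of 1 WT and 1 KO library, so it does not follow genotype. It carries the last 2 sample numbers among the labels of the CD45 libraries, and the labels name no batch or day. With the pair entered as a set of its own beside genotype, a fit chosen after seeing the data, edgeR called 0 genes, and 1049 had an unadjusted p under 0.05. The log2 fold changes were then 0.09 for Ccr2 (SE 0.12), 0.03 for Lyz2 (SE 0.14), 0.03 for Plac8 (SE 0.15) and 0.42 for Chil3 (SE 0.081, adjusted p = 0.422). The standard errors of these 4 members were smaller than without that term. They were picked for being low in the pair, so the smaller errors follow from that choice and are no separate result. The estimate was above 0 for 9 of 10 members with a median of 0.15, and no member was called.

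**Figure D3:**
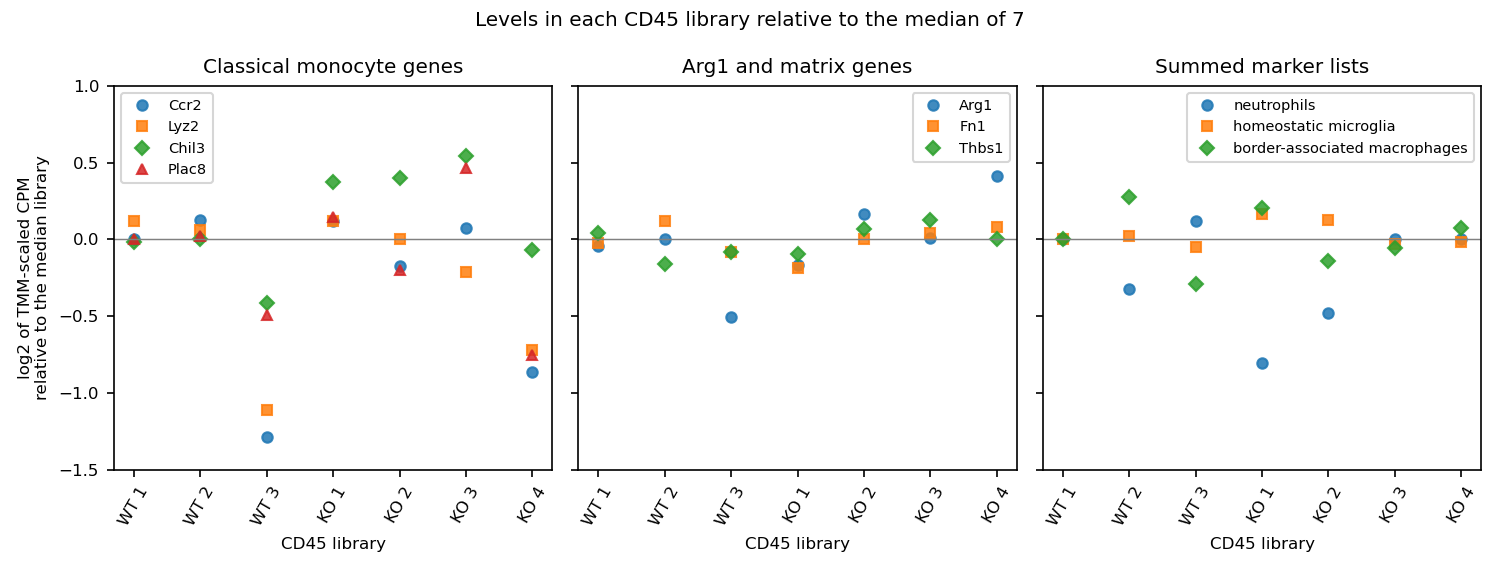
log2 of TMM-scaled CPM in each CD45 library relative to the median of the 7. The left panel holds the 4 members in which WT replicate 3 and KO replicate 4 were lowest. Arg1, Fn1 and Thbs1 are in the middle panel, and Ly6c2, Ms4a4c and S100a4 are not drawn. The right panel holds summed marker lists of neutrophils, homeostatic microglia and border-associated macrophages. Points in the left panel are below 0 in WT replicate 3 and KO replicate 4, while summed microglial markers stay within 3424 to 3979 CPM over all 7 libraries.

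Markers of other cells were read in the same libraries. Summed neutrophil markers (14 genes) were at 11696 CPM in WT replicate 3 and 10760 in KO replicate 4, and at 6150 to 10807 in the other 5. The B cell list (5 genes) was at 98.4 and 103 CPM in the pair and at 66.7 to 76.9 in the rest. The oligodendrocyte list (5 genes, mostly Mbp) was at 1223 and 753 CPM against 309 to 540, and the endothelial list (10 genes) at 367 and 323 against 374 to 559. Microglial markers (11 genes) stood at 3424 and 3505 CPM in the pair and at 3478 to 3979 in the rest. Border-associated macrophage markers (10 genes) stood at 1905 and 2446 CPM against 2114 to 2823. The part of these cells in the levels of the members was not tested.

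Between genotypes the neutrophil list ran from 8591 to 11696 CPM in WT and from 6150 to 10807 in KO, with 0 of 14 genes called. Neuronal markers were low, at 15.4 to 36.1 CPM in WT and 19.9 to 123 in KO, with a median log2 fold change of 1.26 and 0 of 6 called. The T and NK cell list summed to 18.3 to 37.5 CPM over all 7 libraries, astrocyte markers to 144 to 210, dendritic cell markers to 633 to 872 and non-classical monocyte markers to 745 to 913. No gene of any marker list was called between genotypes in CD45 (edgeR), and the part of these cells in the genotype estimates was not tested.

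Over the 7 CD45 libraries, which share their source tissue and composition, the log2 CPM of Ccr2 followed that of Lyz2 with a Pearson r of 0.958 and that of Plac8 with 0.831. Arg1 and S100a4 had 0.845, while Ccr2 with Fn1 had 0.05 and Lyz2 with Thbs1 had 0.08. Other pairs did not divide that way. Among monocyte genes Ccr2 had 0.508 with Ly6c2 and 0.287 with Ms4a4c, and Plac8 with Ms4a4c had 0.265. Ly6c2 with Thbs1 had 0.632. These are descriptions of 7 libraries. The mean standardized profile of the members was set against 12362 protein-coding genes, the members among them. Of the other genes, those most like it included Ap4s1 (r = 0.987), March1 (0.975), Herc6 (0.973) and Capza2 (0.969). The members themselves ran from 0.390 for Ms4a4c to 0.863 for Chil3 against this profile, of which they are part. March1, an antigen-presentation ubiquitin ligase, ran from 43.8 CPM in WT replicate 3 to 101 CPM in KO replicate 3, which were the lowest and highest libraries of the members' mean profile as well. Herc6, an interferon-induced ligase, ran from 8.75 to 23.3 CPM between the same libraries. March1 and Herc6 were picked for following that profile, so sharing its lowest and highest libraries comes from the choice and is no separate result.

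Of the 4 members low in the pair, the sequence just upstream of the start is shown for Lyz2, Chil3 and Plac8, since the window of Ccr2 lies mostly inside an annotated transcript. It comes from RefSeq promoter windows of 250 bases on GRCm38.p6, less the bases inside an annotated transcript, and is written along the strand of the gene. The spans are chr10:117282322-117282522 for Lyz2, chr3:106167565-106167814 for Chil3 and chr5:100572246-100572455 for Plac8. Capitals mark GAGGAA, a core of the sites of PU.1, the main myeloid transcription factor.
Lyz2: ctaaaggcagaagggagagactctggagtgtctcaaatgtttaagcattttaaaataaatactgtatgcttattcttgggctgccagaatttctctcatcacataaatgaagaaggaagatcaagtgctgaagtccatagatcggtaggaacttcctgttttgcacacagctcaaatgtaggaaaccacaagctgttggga
Chil3: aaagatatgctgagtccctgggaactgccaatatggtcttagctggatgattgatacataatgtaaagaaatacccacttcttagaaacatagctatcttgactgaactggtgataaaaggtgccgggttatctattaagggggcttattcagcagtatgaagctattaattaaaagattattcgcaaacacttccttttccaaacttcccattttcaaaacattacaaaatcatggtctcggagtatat
Plac8: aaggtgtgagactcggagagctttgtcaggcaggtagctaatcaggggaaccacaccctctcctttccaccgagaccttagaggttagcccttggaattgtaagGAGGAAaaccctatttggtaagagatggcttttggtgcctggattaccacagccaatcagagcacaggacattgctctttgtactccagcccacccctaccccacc
RefSeq windows matched 7 of the 10 members, 9 windows in all, without Fn1, Arg1 and Thbs1. With 1 window a gene, the first listed, GAGGAA on either strand occurred in 3 of 7 members (Ly6c2, Plac8 and Ms4a4c) and in 23.1% of 27025 genes. TTNNGCAA, which resembles sites of C/EBP factors, occurred in 0 of 7 and in 9.55% of all genes, and was found in the other window of Plac8. No window held both motifs. A match is a description of letters and nothing more.

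The flow-through served as background, and here the members stood far apart. All 10 members were called higher in CD45 than in flow-through libraries, where 41.4% of the 18098 genes tested were (edgeR quasi-likelihood test on 14 libraries), and for 9 of 10 no flow-through library reached a CD45 library, against 33.1% of genes. The median log2 difference was 11.49, compared with -0.05 over all genes. The beads separated cells by CD45 and the members were listed as leukocyte genes, so this direction is no independent finding.

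Ly6c2 and Ms4a4c had 0 counts in all 7 flow-through libraries. With 3 counts over that group as the floor (0.0190 CPM), they were at least 1435-fold and 1675-fold higher in the CD45 fraction. Pooled ratios were 2918 for Ccr2 (95% counting interval 1961 to 4553), 3987 for Chil3 (2332 to 7489, from 13 flow-through counts) and 796 for Plac8 (483 to 1422, from 15). These intervals cover counting error only. Single flow-through libraries carried 7 of the 13 Chil3 counts (WT replicate 3) and 8 of the 15 Plac8 counts (WT replicate 2), and without them the ratios were 7487 and 1466. Lyz2 was 2091 times and Arg1 1997 times higher by pooled CPM.

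The matrix genes had a clear level outside the CD45 fraction. Fn1 stood at 84.1, 110, 73.1 and 182 CPM in flow-through WT and at 105, 103 and 132 CPM in flow-through KO, and its pooled ratio was 56.1. Fibronectin is also made by vascular and meningeal cells. Thbs1 stood at 21.2 to 30.0 CPM over all 7 flow-through libraries, with a ratio of 284. S100a4 differed least, with a pooled ratio of 3.05. The edgeR estimate, which weighs libraries and applies TMM factors across fractions, was 2.23 on the log2 scale (SE 0.32, adjusted p = 1.02e-05), a fold of 4.69, and for Plac8 it was a fold of 1306 against the pooled 796. S100a4 stood at 2.48, 3.56, 2.58 and 2.58 CPM in flow-through WT and at 1.62, 2.49 and 2.45 in flow-through KO. The CD45 library WT replicate 3, at 1.98 CPM, lay inside that range, so S100a4 was the only member whose fractions overlapped.

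**Figure D4:**
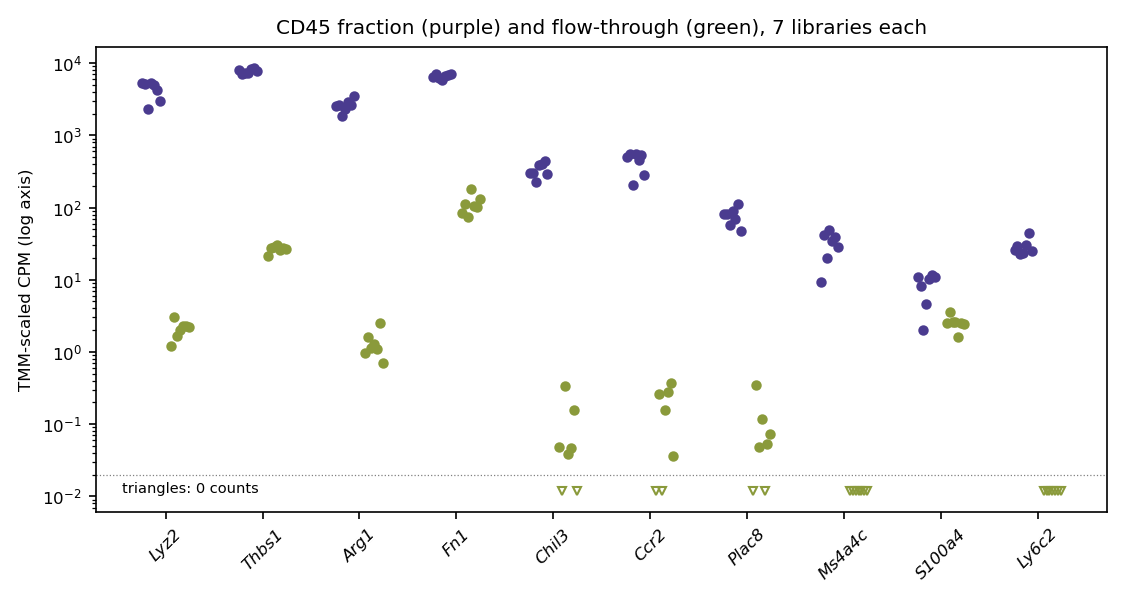
TMM-scaled CPM of each member on a log axis in the 7 CD45 libraries (purple) and the 7 flow-through libraries (green), with open triangles below the dotted line for libraries with 0 counts. Ly6c2 and Ms4a4c have 0 counts in every flow-through library, and only for S100a4 do the fractions overlap.

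In the flow-through 5 of the 10 members passed the filter on low counts, and 0 of those 5 differed between KO and WT, where 1.57% of 16546 genes were called (edgeR quasi-likelihood test). The log2 fold changes were 0.19 for Lyz2 (SE 0.29), 0.01 for Fn1 (SE 0.33), 0.16 for Arg1 (SE 0.39), -0.02 for Thbs1 (SE 0.12) and -0.35 for S100a4 (SE 0.24), with adjusted p-values from 0.649 to 0.993, and none was called by DESeq2. At an unadjusted p under 0.05 the count was 0 of 5, against 6.76% of all genes higher and 4.20% lower in KO. Ccr2, Ly6c2, Chil3, Plac8 and Ms4a4c had too few counts to test. A difference of the genotype effect between fractions passed an adjusted p under 0.05 for 0 members and 0 of 18098 genes (interaction term in edgeR, 14 libraries), and an unadjusted p under 0.05 for 1305 genes. For the 8 members with flow-through counts the smallest adjusted p of that term was 0.820.

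Of the near-identical relatives, Ly6c1 stood at 24.8, 29.7 and 22.7 CPM in CD45 WT and at 19.1, 36.9, 27.4 and 18.9 in CD45 KO. Ly6c2 made up 44.95 to 61.9% of the summed CPM of the pair in CD45 libraries and 0% in flow-through libraries. These shares are not adjusted for exon length, which is 2740 bases for Ly6c2 and 1677 for Ly6c1. Per kilobase of exon, Ly6c1 was above Ly6c2 in every CD45 library, for example at 14.8 against 9.51 RPKM in WT replicate 1. The gap was smallest in KO replicate 3, at 16.3 against 16.2 RPKM. In the flow-through Ly6c1 stood at 3.76 ± 1.35 CPM in WT (SD, n = 4) and 1.64 ± 0.454 in KO (n = 3), with no overlap. Its log2 fold change was -1.18 (SE 0.31) at an adjusted p of 0.0969, which missed the threshold. DESeq2 gave an adjusted p of 0.0137, edgeR without a filter 0.000526 and edgeR without WT replicate 4 0.0487. The other alternatives missed the threshold: upper-quartile scaling gave 0.0937, RLE scaling 0.100, the stricter filter 0.110, the joint fit 0.369, and leaving out each of the other 6 libraries 0.0974 to 0.264. Ly6c1 is 1 of the 10 endothelial markers, of which 9 had estimates below 0 in the flow-through (median -0.37) and 0 were called, and the part of endothelial cells in its level was not tested. Lyz1 was near the floor in the flow-through, with 8 counts in all, and at 2.24 ± 1.14 CPM in the CD45 libraries (SD, n = 7).

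Other genes of the same cells and pathways were read from lists of textbook genes. Of 29 other monocyte and macrophage genes 0 were called between genotypes in CD45, with 21 estimates above 0 and a median of 0.10. In this list 1 gene passed an unadjusted p under 0.05 (edgeR), against 4.43% of all genes tested. In the lists that follow 1 of recruitment, 2 of inflammatory activation, 1 of alternative activation, 2 of arginine metabolism and 3 of matrix did. Lists share genes: the 1 of alternative activation is Arg2, which is also among the 2 of arginine metabolism. Of the 29 genes, Cd14, the co-receptor for endotoxin, was the most abundant at 3980 ± 757 CPM (SD, n = 7). Tgfbi, a secreted matrix protein, followed at 2809 ± 534 and Vim, an intermediate filament protein, at 2107 ± 178. Tgfbi was lowest in WT replicate 3 and KO replicate 4 (1731 and 2517 CPM), and Cd14 was highest in them (5108 and 4840 CPM). S100a6, S100a10 and S100a11 stood at 299, 155 and 391 CPM. Between fractions, where 41.4% of all genes were higher in CD45, 29 of these 29 were higher, as were 15 of 15 genes of inflammatory activation and 14 of 14 of alternative activation. The other lists were mixed: 17 of 20 recruitment genes were higher and 2 lower, 6 of 11 arginine and polyamine genes higher and 3 lower, and 14 of 20 matrix genes higher and 5 lower.

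Genes of monocyte recruitment, among them the ligand Ccl2 and adhesion receptors, had 0 of 20 called between genotypes and a median of -0.03. Ccl2 had a log2 fold change of 0.45 (SE 0.19) at an adjusted p of 0.974. The growth factor receptor Csf1r stood at 1497 ± 121 CPM. Inflammatory activation genes had 0 of 15 called and a median of -0.01, with the cytokine Il1b at 3063 ± 450 CPM. The cytokine Il6 had the smallest p of this list, with a log2 fold change of 0.57 (SE 0.17) at an adjusted p of 0.974 (edgeR). Of the 15 estimates 8 were below 0. Genes of alternative activation, the program in which Chil3 and Arg1 are often placed, had 0 of 14 called and a median of 0.04, with the scavenger receptor Msr1 at 1633 ± 198 CPM.

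Of arginine and polyamine genes 0 of 11 were called, with a median of 0.00. Arg2, the mitochondrial arginase, stood at 316, 306 and 313 CPM in WT and at 183, 221, 316 and 202 CPM in KO, with a log2 fold change of -0.44 (SE 0.17) at an adjusted p of 0.974. Its KO values were below WT in 3 of 4 libraries, and KO replicate 3 was at the WT level. For matrix receptors and provisional matrix, the partners of Fn1 and Thbs1, 0 of 20 were called with a median of 0.09. Cd36, a receptor that binds thrombospondin, was at 0.31 (SE 0.11, adjusted p = 0.974), and Spp1, the secreted ligand osteopontin, stood at 2215 ± 586 CPM.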

How the data were processed

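The members and all gene lists were chosen with earlier results of these data known. The authors deposited gene counts in 1 table per fraction, and a companion signal table holding the counts divided by a size factor per library, since their ratio was the same for every gene of a library. Trim Galore, FastQC, STAR 2.7.9a and the GRCm38 build are named by the submitters' processing notes. Per the labels' protocols the kit was stranded, with 14 PCR cycles. Groups follow the labels, and replicate numbers, given in accession order, pair nothing. Of 33223 genes 33130 matched GENCODE M21.

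The test on counts was that of edgeR 4.0.16 in R 4.3.3: TMM scaling, filterByExpr (at least 10 counts in enough libraries, 15 in total), robust quasi-likelihood test and Benjamini-Hochberg adjustment over all genes tested, called at an adjusted p under 0.05. Genotypes were compared within a fraction, and fractions over 14 libraries with 1 mean per group, although CD45 and flow-through libraries may share animals. The library that stands in a table against its label was left out. The scripts were tested on simulated data. Alternatives were other scalings and filters, DESeq2 1.42.0, a joint fit and leaving out libraries. Named genes were the members, their near-identical relatives, Epha4, Ptprc, the 3 most abundant genes of each list and the 5 genes most like the members, of which 1 is not reported here. S100a6, S100a10, S100a11, Ccl2, Cd36 and Il6 were named after their values were seen.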

Additional observations from a re-analysis of the deposited data

Results flagged for a closer look

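In 18 sets of 4 libraries a single library was compared with the range of the rest, and 3 stood apart. The rule gives about 1 in 20 by chance only for normally distributed values. Some of these sets hold only a few counts a library, so 3 of 18 is not read as an excess. S100a4 was at 4.66 CPM in CD45 KO replicate 1, against 10.4 to 11.5 CPM in the other KO libraries. S100a4 was also at 3.56 CPM in flow-through WT replicate 2, against 2.48 to 2.58 CPM in the other WT libraries. Chil3 was at 0.340 CPM in flow-through WT replicate 3, which is 7 counts, against 0 to 0.0477 CPM in the others.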

How the results depend on the processing

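All 10 members stayed higher in CD45 than in flow-through libraries under every scaling, filter, tool and left-out library tried. Upper-quartile scaling moved the median of all genes by -0.25 (log2) there, leaving out the filter by -0.22 and DESeq2 by 0.12. In the CD45 fraction no member was called under any alternative, including the pair WT replicate 3 and KO replicate 4 as a set of their own (0 genes called), which was chosen after seeing the data. DESeq2 called 5 genes there, and leaving out each library gave 0 to 1 (1 without KO replicate 1). Leaving out 1 library turned the direction of small differences: the ranges were -0.23 to 0.34 for Ccr2, -0.083 to 0.30 for Plac8, -0.26 to 0.23 for Lyz2, -0.067 to 0.041 for Fn1, -0.065 to 0.84 for S100a4, -0.25 to 0.11 for Ly6c1, -0.33 to 0.53 for Lyz1 and -0.036 to 0.12 for Ptprc. Without both WT replicate 3 and KO replicate 4, also chosen after seeing the data, the values were -0.05 for Ccr2, -0.12 for Lyz2, -0.099 for Fn1, -0.15 for S100a4, 0.02 for Ly6c1 and -0.02 for Lyz1. Ms4a4c ran from 0.27 to 1.35, lowest without WT replicate 1 and highest without WT replicate 2. Chil3 stayed between 0.33 and 0.57 with 1 library left out. In the flow-through the number of genes called was 260, with 629 without a filter, 416 by DESeq2, 30 in the joint fit and 134 to 287 with 1 library left out. There the ranges were -0.14 to 0.35 for Fn1, -0.48 to 0.51 for Arg1 and -0.12 to 0.046 for Thbs1. The cause of these shifts was not tested. No paired analysis was possible because the labels give no replicate numbers that the groups share, only 1 running number a library.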
